A study of Mus musculus with 96 samples.

Results

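A set of 10 imprinted genes with roles in embryonic growth was followed through the emergence of haematopoietic stem cells (HSCs) in the mouse: Igf2, H19, Dlk1, Grb10, Cdkn1c, Meg3, Peg3, Mest, Ndn and Plagl1. They were chosen by name. All 10 were found among the 19836 genes of the count table, and all 10 were among the 15239 genes with at least 30 reads over all cells. The genes were proposed with earlier results of these cells in view, so their levels in the 4 groups and their correlations are given as descriptions, with no test.

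Each sample was 1 sorted cell from a C57BL/6 embryo, sequenced after full-length cDNA synthesis with a SMART-Seq kit. The groups were 48 precursors of HSCs (pre-HSCs) from the aorta-gonad-mesonephros region (AGM, the trunk region in which HSCs first form) at E11.5, 16 pre-HSCs of the E11.5 yolk sac, 16 fetal liver HSCs at E12.5 and 16 at E14.5. Both E11.5 groups were sorted as Ter119-CD11b-CD144+c-kit+EPCR+, where CD144 (Cdh5) is the endothelial cadherin and EPCR (Procr) the endothelial protein C receptor. The E12.5 cells were Ter119-Sca-1+c-kit+EPCR+ and the E14.5 cells Ter119-Sca-1+c-kit+CD48-CD150+. Tissue, stage and gate therefore change together between AGM and liver, and gate and stage between the 2 liver groups, and cannot be told apart. No label names an animal or a litter, so each group counts as 1 sample, cells are not replicates, and no p-value is given.

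Cells held 250235 to 1926882 reads, and the median number of genes with a read was 5522.5 in AGM, 5349.5 in yolk sac, 4036 in the liver at E12.5 and 4839 there at E14.5. Some cells stood apart. AGM cell 3 had 6222 CPM (reads scaled to the same total in each cell) of 7 endothelial markers. Its sum of 7 haematopoietic markers was 0.872 CPM. It had 0 reads of Ptprc (CD45), but so had other AGM cells, such as cell 21 with 1630 CPM of haematopoietic markers. Coro1a alone gave 1495 CPM of that sum in cell 21. AGM cell 36 had 5101 and 71.9 CPM of the same sums and 11094 genes, the most of any AGM cell. E12.5 cell 8 had 1011 genes, 23686 CPM of macrophage markers and 3.996 CPM of haematopoietic markers. These 3 cells were the ones under 100 CPM of haematopoietic markers, and several results, though not all, are given with and without them. Only 8 of the 16 yolk sac cells had a read of Cdh5 or Procr, both genes of their gate. Among the 8, cell 7 had just 1 Cdh5 read and cell 9 just 1 Procr read. Adult globins passed 1000 CPM in 7 liver cells and reached 219538 CPM in E14.5 cell 16. Hepatoblast markers summed to at most 814.5 CPM in any cell. Of 6 such markers, 4 had reads among AGM cells, 5 each among yolk sac cells and E12.5 cells, and 1 among E14.5 cells. Hnf4a had reads only among the E12.5 cells. The pooled hepatoblast sum was larger in both E11.5 groups (AGM 64.5 CPM, yolk sac 108.4 CPM) than in either liver group (E12.5 30.5 CPM, E14.5 37.9 CPM).

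An imprinted gene is transcribed mainly from the copy inherited from 1 parent, under control of DNA methylation laid down in the germ line. Igf2, Dlk1, Peg3, Mest, Ndn and Plagl1 are known as paternally expressed genes, H19, Meg3 and Cdkn1c as maternally expressed genes, and Grb10 as maternally expressed outside the nervous system. Many of them act on fetal growth, and several are known for high levels in quiescent adult HSCs. Read counts per gene do not separate the parental copies, so imprinting itself was not measured.

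The members lie in several imprinted clusters on GRCm38. Igf2 (7:142650766-142666816, minus strand) and H19 (7:142575529-142578143, minus strand) are neighbours with 72.6 kb between them, and Cdkn1c (7:143458339-143461050, minus strand) lies 791.5 kb from Igf2. Dlk1 (12:109452823-109463336, plus strand) and Meg3 (12:109541001-109571726, plus strand) have 77.7 kb between them. Grb10 (11:11930508-12038683, minus strand), Peg3 (7:6703892-6730431, minus strand), Mest (6:30723547-30748465, plus strand), Ndn (7:62346569-62350262, plus strand) and Plagl1 (10:13060504-13131694, plus strand) stand elsewhere. H19 and Meg3 are long non-coding RNAs, and the other members code for proteins. Some exons are shared with other genes: 23.1% of the exonic bases of Mest overlap Copg2 on the opposite strand, 30.7% of Cdkn1c overlap the antisense gene Gm44732, and 62.8% of Igf2 overlap Gm49394 on the same strand. Strand use in counting is not given in the sources used here, so reads of these overlaps cannot be told apart.

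RefSeq promoter windows (GRCm38.p6, from 250 bases before to 50 after a start) were found for 8 of the 10 genes, with 15 windows in all; H19 and Cdkn1c are named only. Windows of 5 genes are printed because the results turn on them: Igf2 and Dlk1, whose levels went in opposite directions between AGM and the other E11.5 tissue, and Meg3, Mest and Peg3, which shared AGM cells. They are Igf2 at chr7:142657447-142657746 (minus strand), Dlk1 at chr12:109452573-109452872 (plus), Meg3 at chr12:109540746-109541045 (plus), Mest at chr6:30737800-30738099 (plus) and Peg3 at chr7:6730370-6730669 (minus). Capitals mark matches, on either strand, to TGACGTCA (the cyclic AMP response element), TATAAA (the TATA box) or GGGCGG (the GC box).
Igf2: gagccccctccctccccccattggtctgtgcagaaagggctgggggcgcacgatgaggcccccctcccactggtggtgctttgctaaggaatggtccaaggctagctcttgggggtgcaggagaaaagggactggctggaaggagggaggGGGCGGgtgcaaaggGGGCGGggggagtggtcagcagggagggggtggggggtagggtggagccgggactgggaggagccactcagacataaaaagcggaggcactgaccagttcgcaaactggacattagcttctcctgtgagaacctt
Dlk1: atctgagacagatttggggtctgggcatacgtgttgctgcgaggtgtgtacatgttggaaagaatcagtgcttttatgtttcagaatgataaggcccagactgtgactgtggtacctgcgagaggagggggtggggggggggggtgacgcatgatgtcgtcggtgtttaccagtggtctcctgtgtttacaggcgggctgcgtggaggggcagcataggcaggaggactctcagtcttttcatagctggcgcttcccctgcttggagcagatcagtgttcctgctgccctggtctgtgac
Meg3: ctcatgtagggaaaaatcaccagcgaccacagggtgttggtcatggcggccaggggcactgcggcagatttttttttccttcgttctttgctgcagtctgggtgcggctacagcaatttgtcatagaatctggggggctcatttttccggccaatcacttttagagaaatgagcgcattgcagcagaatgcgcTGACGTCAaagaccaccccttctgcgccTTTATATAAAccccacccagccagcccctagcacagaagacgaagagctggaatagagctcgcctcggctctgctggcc
Mest: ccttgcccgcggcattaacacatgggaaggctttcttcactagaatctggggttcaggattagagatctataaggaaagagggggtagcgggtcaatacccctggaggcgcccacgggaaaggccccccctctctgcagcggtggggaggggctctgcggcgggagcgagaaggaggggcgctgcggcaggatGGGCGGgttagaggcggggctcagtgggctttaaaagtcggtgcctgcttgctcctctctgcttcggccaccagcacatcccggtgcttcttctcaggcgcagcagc
Peg3: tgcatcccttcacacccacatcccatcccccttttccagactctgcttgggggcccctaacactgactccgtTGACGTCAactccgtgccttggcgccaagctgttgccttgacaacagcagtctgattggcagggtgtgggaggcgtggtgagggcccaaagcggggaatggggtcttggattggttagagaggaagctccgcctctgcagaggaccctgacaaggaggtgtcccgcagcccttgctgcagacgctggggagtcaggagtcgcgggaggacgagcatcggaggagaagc
TGACGTCA stood once in the Meg3 window and once in the Peg3 window, and in 1.79% of all 32851 promoter windows. The Meg3 window also held 2 overlapping matches of TATAAA, 1 on each strand, a motif found in 13.62% of windows. GGGCGG, found in 35.66% of windows, stood in 2 places in the Igf2 window and in 1 place in the Mest window. The Dlk1 window held none of the 3. CG dinucleotides numbered 7 in the Igf2 window, 9 in Dlk1, 13 in Meg3, 17 in Mest and 13 in Peg3, beside a median of 7 over all windows. The printed windows of Igf2, Meg3 and Mest were each 1 of several of the gene, picked by position. Other Igf2 windows held 24, 14 and 2 CG dinucleotides and 1, 0 and 0 matches of GGGCGG. The other Meg3 window held 1 CG dinucleotide and no TGACGTCA or TATAAA, and another Mest window held 8. These are matches of letters only.

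Igf2, the fetal insulin-like growth factor, had its highest level in AGM pre-HSCs and its lowest in E14.5 liver HSCs. Single AGM cells had 172.01 to 2649 CPM (median 823.1), and a read was present in 48 of 48. Yolk sac cells had 50.8 to 859.9 CPM (median 239.3), E12.5 cells 0 to 774.5 CPM (median 202.5) and E14.5 cells 0 to 146.8 CPM (median 22.5). The cell ranges of neighbouring groups overlapped, and 23 AGM cells lay above the highest yolk sac cell. In pooled reads, scaled to CPM, the levels were 885.8 (exact 95% Poisson interval 878.3 to 893.3) in AGM, 379.6 (371.6 to 387.8) in yolk sac, 286.7 (279.2 to 294.4) in the liver at E12.5 and 30.3 (27.9 to 32.7) at E14.5. Such intervals cover counting error only, since reads without molecular identifiers are not independent molecules. The log2 ratio, taken after 1 CPM was added and so understating low genes, was -1.22 for yolk sac over AGM, -1.62 for E12.5 over AGM and -3.20 for E14.5 over E12.5. With only the 8 yolk sac cells that had a Cdh5 or Procr read, the first was -0.91, under 2-fold.

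H19, the non-coding neighbour of Igf2 and host of the microRNA Mir675, followed the same order of groups. AGM cells had 21.7 to 1600 CPM (median 474.2), yolk sac cells 0 to 683.2 (median 211.2), E12.5 cells 0 to 1368 (median 58.3) and E14.5 cells 0 to 374.4 (median 23.9). Pooled levels were 503.5, 257.5, 161.1 and 70.5 CPM. H19 was under 2-fold lower in yolk sac than in AGM (log2 ratio -0.96; past 2-fold, at -1.01 to -1.20, without any 1 of yolk sac cells 2, 6, 8, 13 and 15), and lower at E12.5 than in AGM (-1.64). E12.5 cell 9, at 1368 CPM, carried much of the E12.5 level: without it the E14.5 over E12.5 ratio went from -1.18 to -0.70, and it was -0.83 without E12.5 cell 15 and -0.91 without the globin-rich cells.

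Set against each other, H19 and Igf2 reads stood at a ratio of 0.568 (exact 95% interval 0.560 to 0.576) in AGM, 0.678 (0.656 to 0.702) in yolk sac and 0.562 (0.537 to 0.587) at E12.5. At E14.5 it was 2.33 (2.12 to 2.56), as Igf2 was lower by a larger factor than H19. Leaving out single E14.5 cells gave 1.59 (without cell 1) to 2.80 (without cell 4), each above the pooled value of the other groups. H19 exceeded Igf2 in 12 of 48 cells from AGM, 6 of 16 from yolk sac, 7 of 16 liver cells at E12.5 and 9 of 16 E14.5 cells. Within single cells the ratio ran from 0.0104 to 3.20 in AGM alone.

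Dlk1, a transmembrane protein related to Notch ligands that marks fetal liver progenitors, went the other way. It was read in 17 of 48 AGM cells (0 to 215.03 CPM, median 0), 10 of 16 yolk sac cells (0 to 1539, median 63.0), 12 of 16 liver cells at E12.5 (0 to 1537, median 118.4) and 11 of 16 E14.5 cells (0 to 398.2, median 58.8). The highest AGM cell was passed by 6 yolk sac cells and 5 E12.5 cells, while the ranges still overlapped at the low end. Pooled levels were 23.9 CPM in AGM, 351.8 in yolk sac, 327.7 in the liver at E12.5 and 138.4 there at E14.5. Log2 ratios were 3.83 for yolk sac over AGM, 3.73 for E12.5 over AGM and -1.24 for E14.5 over E12.5. The last was -0.83 without E12.5 cell 5 and -0.93 without E12.5 cell 15. No AGM cell had more Dlk1 than Igf2, whereas 4 of 16 yolk sac cells, 6 of 16 liver cells at E12.5 and 9 of 16 E14.5 cells did.

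**Figure D1:**
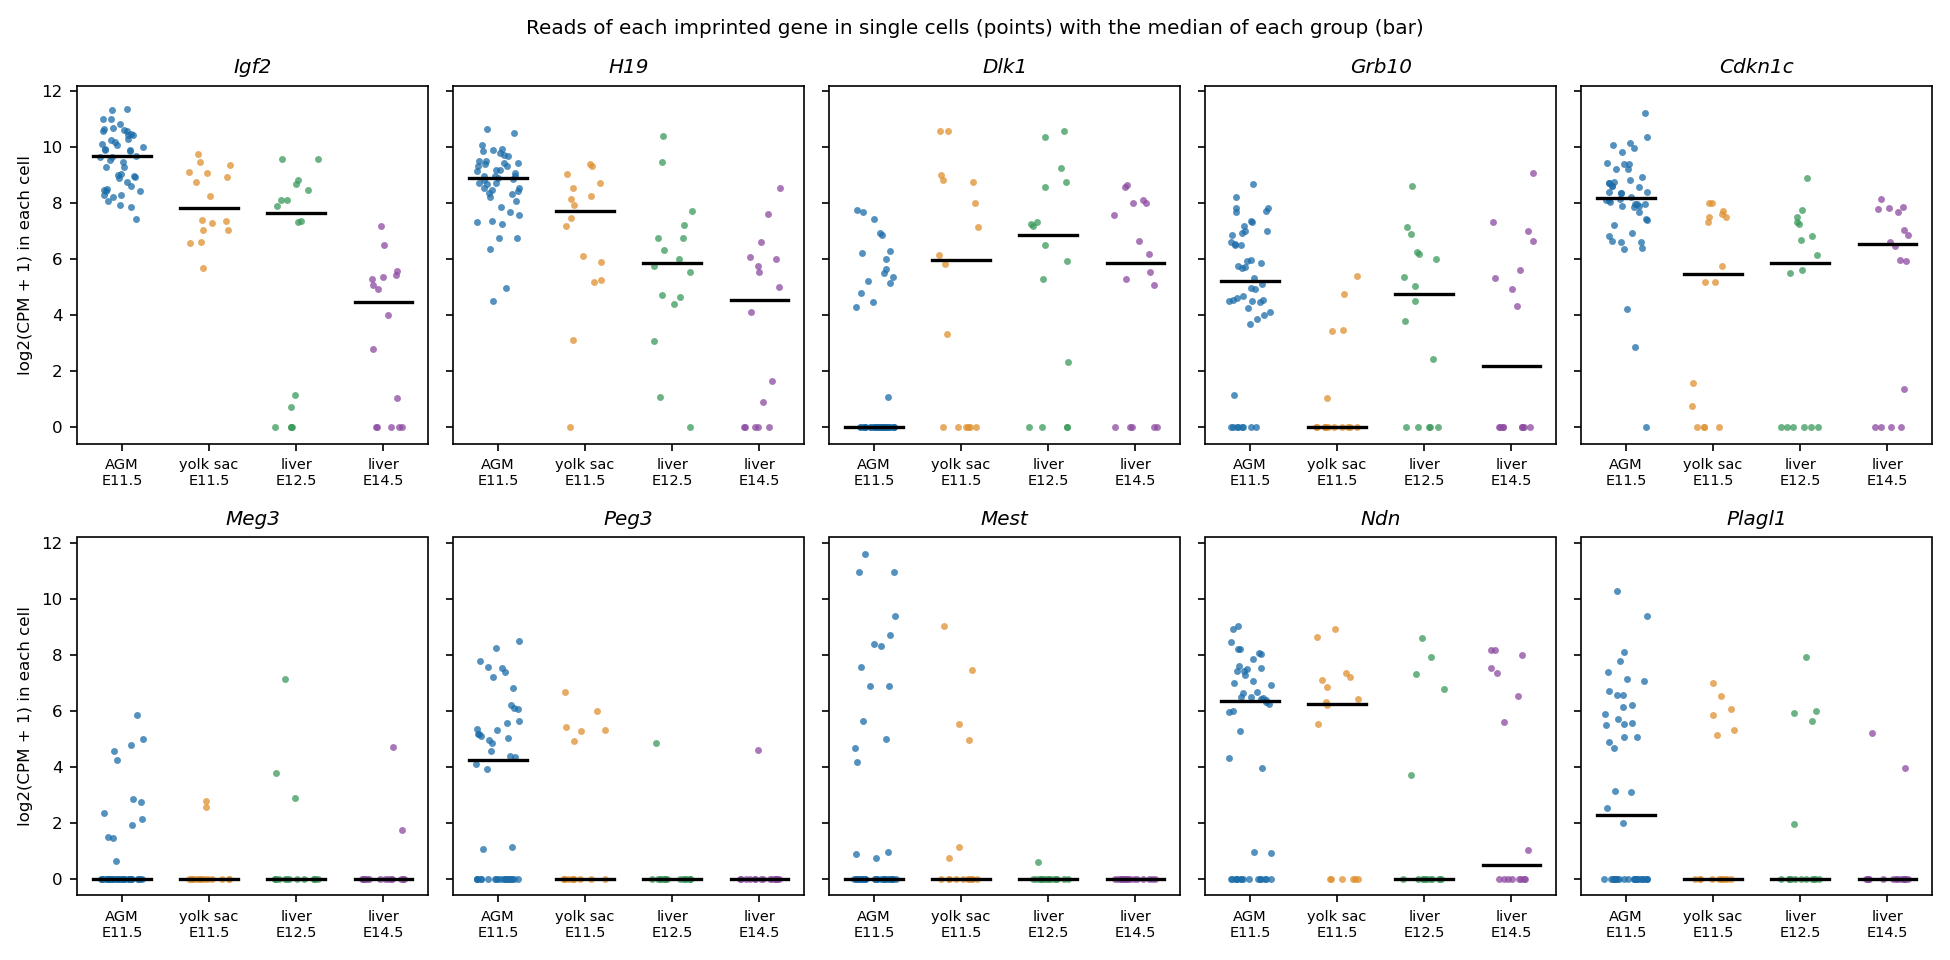
Log2(CPM + 1) of each of the 10 genes in every cell (points), by group on the horizontal axis, with the group median as a bar. Igf2 medians step from 823.1 CPM in AGM to 22.5 CPM at E14.5, and Mest is read in 17 of 48 AGM cells and in 0 of 16 E14.5 cells.

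Meg3, the long non-coding RNA downstream of Dlk1, was rare in all groups. It was read in 13 of 48 AGM cells (0 to 56.9 CPM), 2 of 16 yolk sac cells (up to 5.87 CPM), 3 of 16 liver cells at E12.5 (up to 140.1 CPM) and 2 of 16 E14.5 cells (up to 24.96 CPM), with a median of 0 in each. The pooled level was 3.35 CPM in AGM, 0.762 in yolk sac, 10.02 in the liver at E12.5 and 1.99 there at E14.5. E12.5 cell 15 held 82.7% of the E12.5 reads, and without it the log2 ratio over AGM went from 1.34 to -0.61 and that of E14.5 over E12.5 from -1.88 to 0.07. E14.5 cell 7 held 92.7% of the E14.5 reads, and without it the latter ratio was -3.25. The yolk sac over AGM ratio was -1.30, and -0.95 without AGM cell 18. With so few cells holding a read, no order of Meg3 between the liver groups and AGM can be read. The table held Meg3 in 2 rows, 1 of them without an Ensembl identifier and with 4 reads, and these were summed.

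Grb10, an adaptor that restrains insulin and IGF receptor signalling, was lowest in yolk sac. Cells with a read numbered 40 of 48 in AGM, 5 of 16 in yolk sac, 11 of 16 in the liver at E12.5 and 8 of 16 there at E14.5. AGM cells reached 412.5 CPM (median 36.7), yolk sac cells 41.6 (median 0), E12.5 cells 388.4 (median 27.01) and E14.5 cells 548.4 (median 9.68), each from 0. All yolk sac reads were in cells 1 to 4 and 6, and 23 AGM cells lay above the highest yolk sac cell. Pooled levels were 73.8 CPM in AGM, 6.55 in yolk sac, 62.3 (58.8 to 65.9) in the liver at E12.5 and 65.3 (61.9 to 68.9) at E14.5, where the last 2 overlapped. The yolk sac over AGM ratio was -3.31, -3.93 without yolk sac cell 4 and -2.57 with only the 8 yolk sac cells that had a gate read. E12.5 and AGM differed by -0.24. E14.5 over E12.5 was 0.07, and -0.86 without E14.5 cell 13.

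Cdkn1c, a cyclin-dependent kinase inhibitor that holds HSCs out of cycle in the adult marrow, was highest in AGM and about level among the other groups. A read was present in 47 of 48 AGM cells, 12 of 16 in yolk sac, 10 of 16 in the liver at E12.5 and 12 of 16 there at E14.5. AGM cells had 0 to 2378 CPM (median 294.8), yolk sac cells 0 to 260.6 (median 44.8), E12.5 cells 0 to 477.9 (median 58.8) and E14.5 cells 0 to 287.1 (median 92.5). More than the highest yolk sac cell was found in 28 AGM cells. The pooled level was 437.0 CPM in AGM, 105.8 (101.5 to 110.1) in yolk sac, 93.7 (89.4 to 98.1) in the liver at E12.5 and 103.8 (99.4 to 108.3) at E14.5; the yolk sac and E14.5 intervals overlapped. Ratios were -2.04 for yolk sac over AGM, -2.21 for E12.5 over AGM and 0.15 between the liver groups.

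Plagl1, a zinc finger transcription factor that regulates other imprinted genes, was lowest at E14.5, but its AGM level rested on cells that stood apart. It was read in 25 of 48 AGM cells (0 to 1245 CPM, median 3.89), 6 of 16 yolk sac cells (up to 125.5), 5 of 16 liver cells at E12.5 (up to 241.2) and 2 of 16 E14.5 cells (up to 36.3). AGM cells 36 and 3 were the highest, at 1245 and 677.2 CPM. Pooled levels were 64.4, 28.4, 30.5 and 3.45 CPM, and 33.95 CPM in AGM without those cells. The ratio for yolk sac over AGM was -1.15 with all cells and -0.25 without the 3 cells low in haematopoietic markers, and that for E12.5 over AGM -1.05 and -0.13. Without AGM cell 36 alone these were -0.69 and -0.59, and without AGM cell 3 alone -0.86 and -0.76. The second call was also lost, at -0.90 to -0.999, without any 1 of another 11 cells, which were E12.5 cells 1, 2, 4, 5, 6, 7, 9, 14 and 16 and AGM cells 31 and 48. Without E12.5 cell 15 the latter was -1.84 and the E14.5 over E12.5 ratio -2.04, where it was -2.83 with all cells and -3.81 without E14.5 cell 5.

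Peg3, a zinc finger protein linked to cell death and growth control, was largely read in the E11.5 groups. Reads were found in 28 of 48 AGM cells (0 to 364.0 CPM, median 17.9), 6 of 16 yolk sac cells (up to 101.7), 1 E12.5 cell (cell 6, 28.1 CPM) and 1 E14.5 cell (cell 4, 23.4 CPM). Pooled levels were 50.4 CPM in AGM, 22.3 in yolk sac, 1.36 (0.891 to 1.999) in the liver at E12.5 and 2.19 (1.59 to 2.93) at E14.5, the last 2 overlapping. The ratio was -1.14 for yolk sac over AGM, but -0.71 with only the yolk sac cells that had a gate read and -0.82 without AGM cell 25. For E12.5 over AGM it was -4.44, and -5.68 without E12.5 cell 6. Between the liver groups it was 0.43, and went to -1.24 without E14.5 cell 4 and 1.67 without E12.5 cell 6.

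Mest, a hydrolase-like protein of mesoderm, was at or near 0 in liver HSCs. AGM cells with a read numbered 17 of 48 and reached 3135 CPM, and yolk sac cells 6 of 16, reaching 527.2 CPM. A single read was counted in 1 of 16 liver cells at E12.5. At E14.5 no read was found: by the floor of 3 counts, 0 of 16 cells leaves room for a share of 18.75%, and 0 reads for 0.146 CPM. Pooled levels were 185.1 CPM in AGM and 50.5 in yolk sac. The yolk sac over AGM ratio was -1.85, -3.03 without yolk sac cell 2 and -1.03 without the cells low in haematopoietic markers. In AGM the 3 highest cells were cell 36 (3135 CPM), cell 21 (1992) and cell 3 (1982), and without cells 36 and 3 the AGM level was 103.9 CPM, with 15 of 46 cells positive. No fold is given between the liver groups, since both were under the floor of 3 reads.

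Ndn (necdin, a growth suppressor that restrains proliferation of HSCs) differed least between the E11.5 tissues. It was read in 33 of 48 AGM cells (0 to 523.4 CPM, median 81.4), 10 of 16 yolk sac cells (0 to 485.8, median 75.8), 5 of 16 liver cells at E12.5 (0 to 391.1, median 0) and 8 of 16 E14.5 cells (0 to 288.8, median 0.510). Pooled levels were 111.6 (108.9 to 114.3) and 115.6 (111.2 to 120.2) CPM in AGM and yolk sac, and 76.4 (72.5 to 80.4) and 77.5 (73.8 to 81.4) CPM at E12.5 and E14.5; the intervals overlapped within each pair. The log2 ratios were 0.05, -0.54 and 0.02, and the second was -1.16 without E12.5 cell 14.

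**Figure D2:**
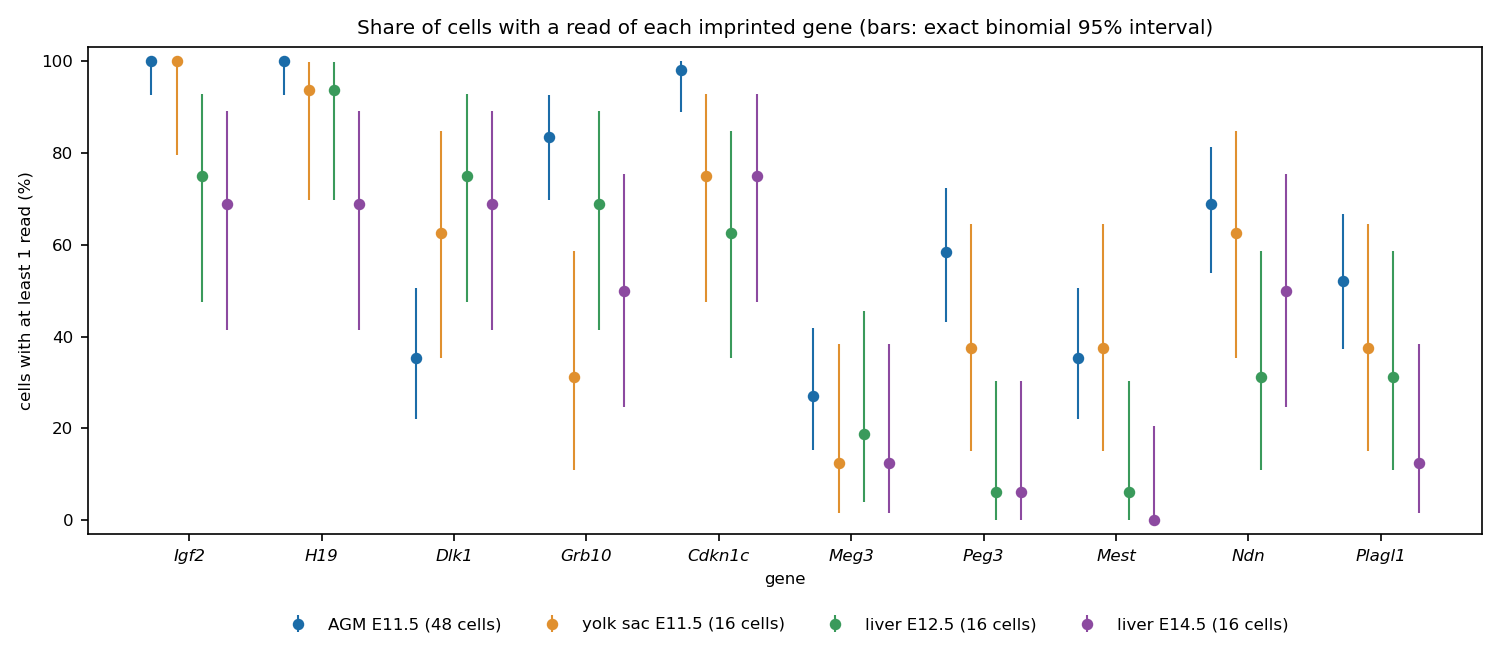
Percent of cells with at least 1 read of each gene, by group (colours), with exact Clopper-Pearson 95% intervals that cover counting error only. Dlk1 is the gene read in a smaller share of AGM cells (17 of 48) than of any other group.

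Counted together, 1 member was at least 2-fold higher in yolk sac than in AGM (Dlk1), 7 were at least 2-fold lower and 2 were under 2-fold. Of all 15239 genes, 8.61% were at least 2-fold higher and 21% at least 2-fold lower in that comparison, 29.6% in either direction. Between E12.5 and AGM 2 members were higher, 6 lower and 2 under 2-fold, where 15.6% of all genes were higher and 26% lower, 41.7% together. Between E14.5 and E12.5 the counts were 0, 5 and 5, where 18.7% of all genes were higher and 18.2% lower, 36.9% together. Nothing is read from the members' counts, as they were named with these contrasts known. The median log2 ratio of the members was -1.19, -1.34 and -0.63 in the 3 comparisons, and that of all genes -0.20, -0.20 and 0. The cell ranges of the 2 groups overlapped in 30 of 30 comparisons of a member, and 0% of all 15239 genes had ranges that did not overlap in any of the 3 comparisons.

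**Figure D3:**
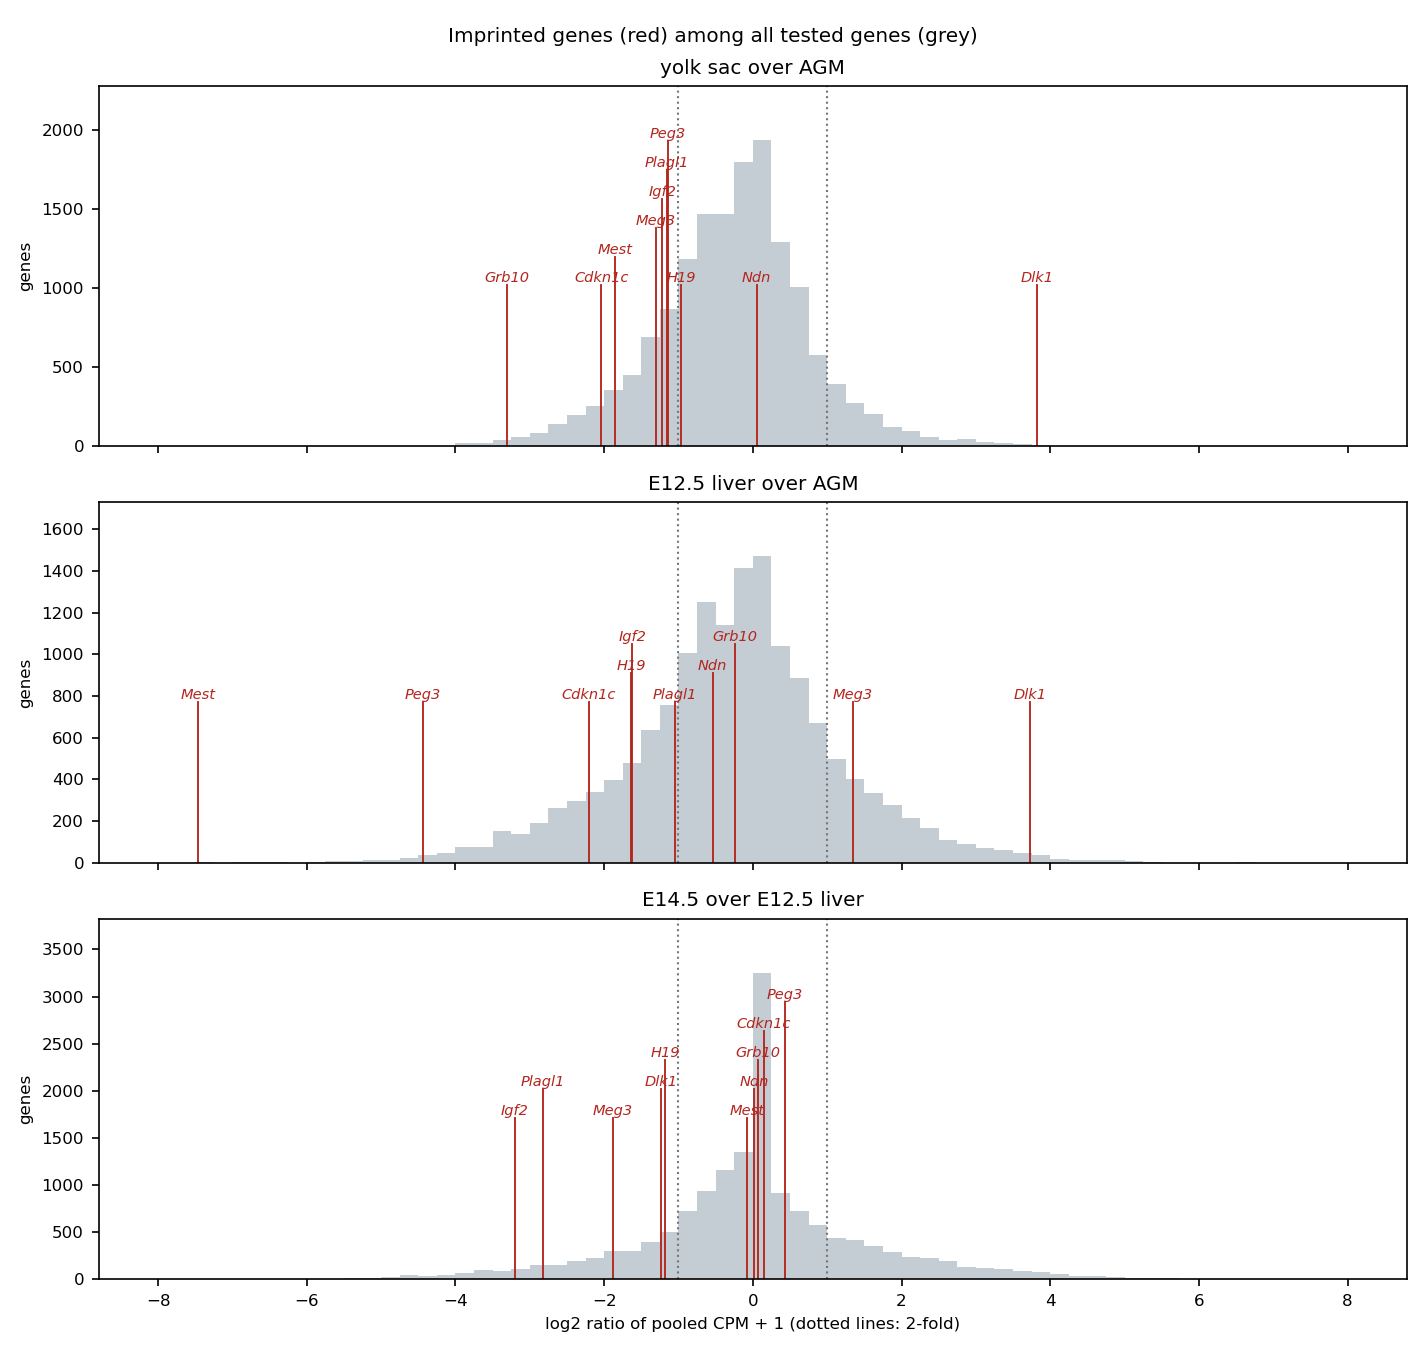
Number of genes (vertical axis) by log2 ratio of pooled CPM + 1 in the 3 comparisons, over all 15239 genes (grey), with the 10 imprinted genes as red lines and 2-fold as dotted lines. Dlk1 sits at 3.83 and 3.73 in the upper panels, and Mest at -7.47 for E12.5 over AGM. The Mest value rests on 1 read at E12.5, under the floor of 3 reads, and depends on the 1 CPM added. Alternatives gave -7.77 to -4.28.

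Levels per kilobase of annotated exons set genes beside each other only roughly. The exons were those of all annotated isoforms, and overlaps with other genes, as for Igf2, Cdkn1c and Mest, were not resolved. On this scale the most abundant members in AGM were Cdkn1c (214.3 CPM per kb), H19 (204.7) and Igf2 (154.8). Mest (46.9) and Ndn (30.2) came next, an order that reversed without AGM cells 3 and 36 (26.3 and 29.6), and Meg3 was lowest at 0.185. In yolk sac the order was led by H19 (104.7), Igf2 (66.3) and Dlk1 (62.2). At E14.5 Cdkn1c led with 50.9 CPM per kb, followed by H19 (28.7), Dlk1 (24.5) and Ndn (20.99), with Igf2 at 5.29.

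A cell had a read of 6 members at the median in AGM (3 to 10), 5.5 in yolk sac (2 to 10), 5 at E12.5 (1 to 7) and 4 at E14.5 (1 to 7). Thinned to 690000 reads a cell, which left out 5 AGM, 0 yolk sac, 2 E12.5 and 2 E14.5 cells, the medians were 6, 5, 5 and 4. The number of members read moved with the number of genes detected in a cell (Spearman rho 0.69 in AGM, 0.76 in yolk sac, 0.70 in the liver at E12.5 and 0.66 there at E14.5), and the part of this in the medians was not tested. Together the 10 genes made up 2339 CPM of the pooled AGM reads, 1319 in yolk sac, 1050 in the liver at E12.5 and 493.4 there at E14.5.

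Across all 96 cells 39 of the 45 pairs of members had a rank correlation above 0 (median Spearman rho 0.26, from -0.30 to 0.63). Cells of 1 group share its tissue, stage and gate, so differences between groups enter the values, and most members also moved with genes detected. The highest were Igf2 with H19 (0.63), Igf2 with Cdkn1c (0.58), H19 with Cdkn1c (0.58) and Meg3 with Mest (0.57). Within the 48 AGM cells Igf2 with H19 was 0.26 and Igf2 with Cdkn1c 0.17. Dlk1 had negative values over all cells with Igf2 (-0.24), H19 (-0.30), Cdkn1c (-0.28) and Grb10 (-0.21). With Igf2 this was -0.28 within AGM, but 0.53 within the 16 yolk sac cells and 0.45 within the 16 E12.5 cells, so its sign was not the same in every group.

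Meg3 and Mest stood apart within AGM, with a rho of 0.82 over 48 cells: 12 cells had both, 1 had Meg3 alone, 5 had Mest alone and 30 had neither. The value was 0.79 over the 46 cells left without AGM cells 3 and 36, of which 10 had both, and 0.73 as a partial rank correlation given the number of genes detected. The number of genes detected moved with each (rho 0.58 for Meg3 and 0.61 for Mest in AGM). The summed CPM of 9 mesenchymal markers also moved with each (rho 0.41 and 0.41), and that of 7 haematopoietic markers moved the other way (-0.46 and -0.36); without cells 3 and 36 these were 0.42 and 0.42, and -0.37 and -0.26. The mesenchymal sum ranged from 0 to 738.7 CPM in AGM cells, with all 9 markers read in the group. Its AGM median was 0, so many ranks were tied. Of the 3 highest Mest cells, cells 21 and 3 had a sum of 0 and cell 36 had 195.8 CPM. Yolk sac cells had 0 to 247.6 CPM, with 7 of the 9 markers read. The E12.5 cells had 0 to 447.7 CPM from only 3 of the 9 markers, and the E14.5 cells 0 to 823.3 CPM from only 2. The sums therefore cover different markers in each group, and the part of the mesenchymal sum in the result was not tested. Meg3 was sparse, so its ranks rest on 13 cells.

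**Figure D4:**
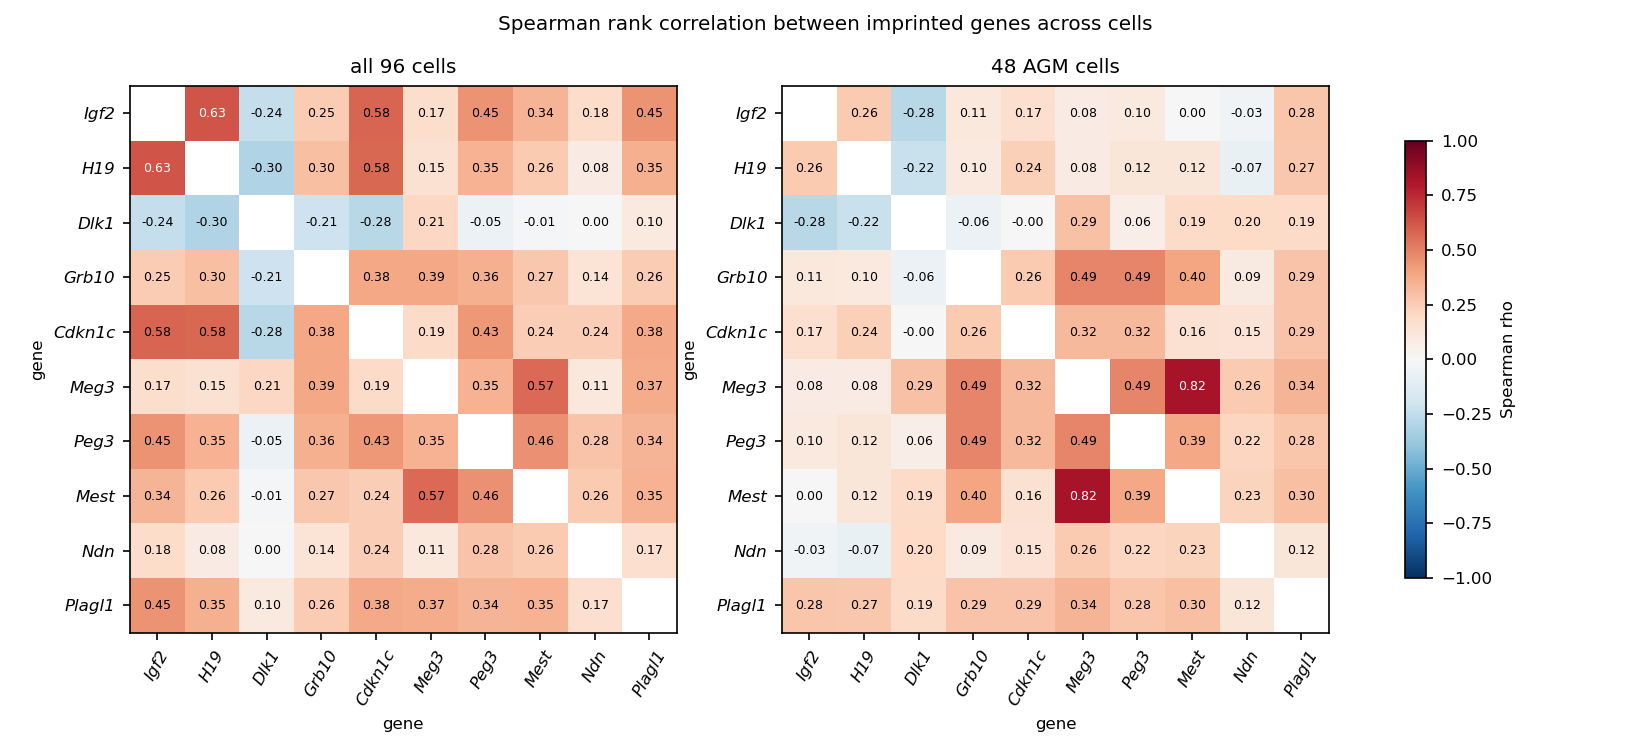
Spearman rho between each pair of the 10 genes over all 96 cells (left) and over the 48 AGM cells (right), on a colour scale from -1 to 1. Meg3 and Mest have 0.82 in AGM, and Igf2 with H19 goes from 0.63 over all cells to 0.26 in AGM.

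Other values in AGM of 0.49 joined Grb10 with Peg3, Grb10 with Meg3 and Meg3 with Peg3. In the smaller groups the highest values were Grb10 with Plagl1 in yolk sac (0.78, where 5 of 16 cells had both and 10 had neither) and H19 with Grb10 at E12.5 (0.90, where 11 of 16 had both). Elsewhere H19 with Grb10 was 0.10 in AGM, 0.24 in yolk sac and -0.03 at E14.5, and Grb10 with Plagl1 was 0.29 in AGM and 0.01 at E12.5. The yolk sac cells with both Grb10 and Plagl1 had 7311 to 10823 genes detected, and no other yolk sac cell had more than 6465. The part of genes detected in that value was not tested. In yolk sac, reads of Plagl1 were all in cells 1 to 6, of which 5 had a Cdh5 or Procr read.

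**Figure D5:**
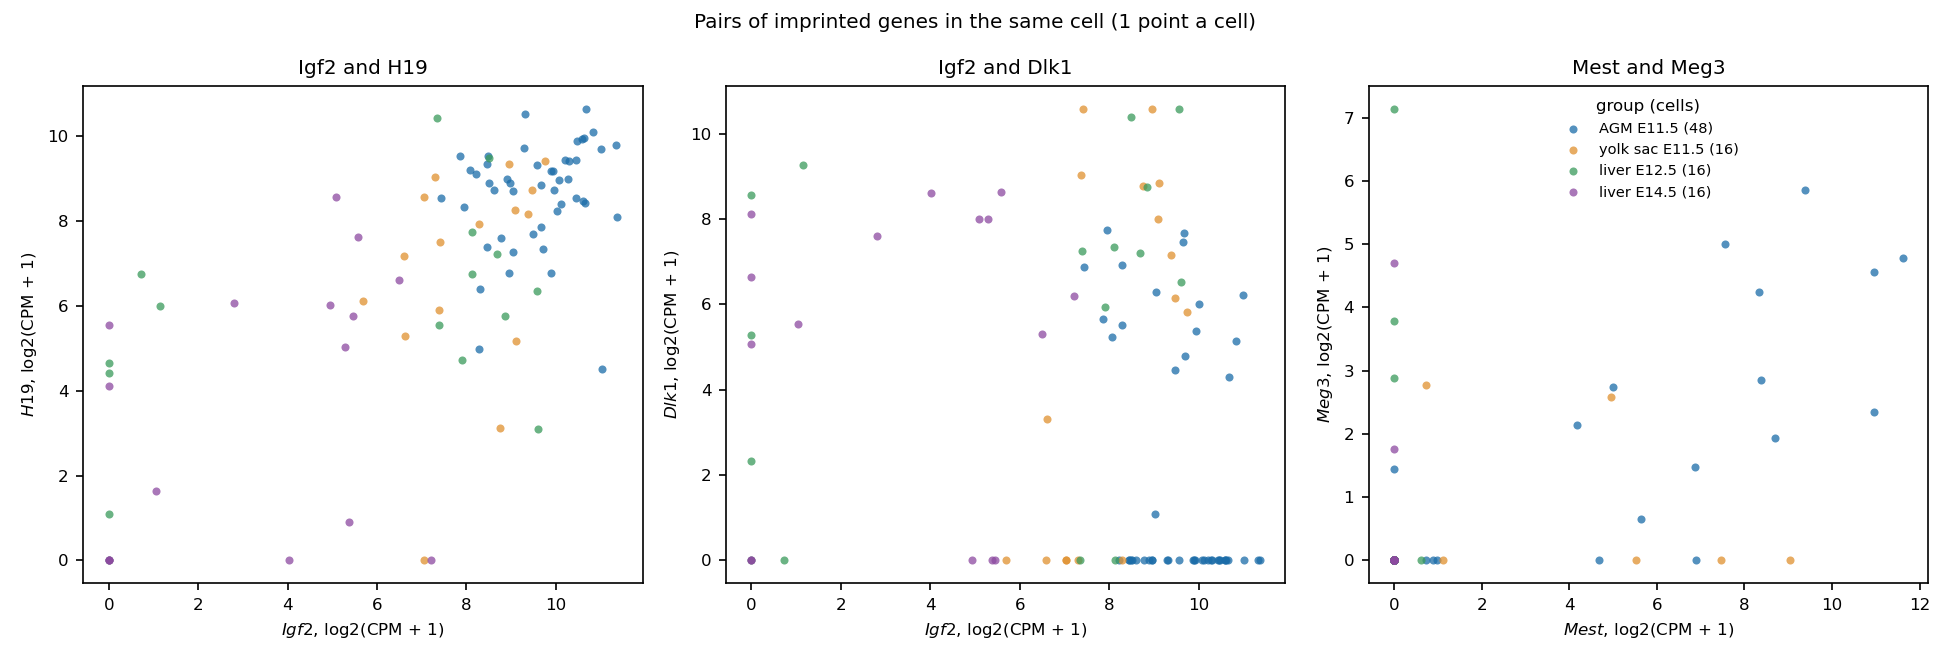
Log2(CPM + 1) of H19 against Igf2, Dlk1 against Igf2 and Meg3 against Mest, 1 point a cell, coloured by group. Every AGM cell has Igf2, and 31 of 48 lie at 0 for Dlk1, while 12 AGM cells have both Mest and Meg3.

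The genes whose levels over the 96 cells were most like each member were found among 8412 genes with a read in at least 20% of cells. Igf2 was most like Fn1 (fibronectin, rho 0.70), Cdh5 (0.70) and Hes1 (a Notch target, 0.64), and H19 most like Cdh5 (0.65), Igf2 (0.63) and Plvap (an endothelial protein, 0.63). Within AGM the values for Igf2 were 0.33, 0.31 and 0.32. Cdkn1c was most like Tspan18 (0.63), Vwf (von Willebrand factor, 0.62) and Igf2 (0.58). Dlk1 was most like Rac2 (a haematopoietic small GTPase, 0.497), Ptpn7 (0.48) and Fam58b (0.46), and Rac2 itself went from 284.9 CPM in AGM to 969.2 in yolk sac. Mest and Meg3 shared Nnat, another imprinted gene (0.62 and 0.53). Peg3 was most like Fosb (0.58), Mmp2 (0.56) and Efemp2 (0.51), and Plagl1 most like Anxa2 (0.56), Uaca (0.56) and Mmrn2 (0.54). Grb10 (Acsf2, 0.43, Afdn, 0.43, and Zfp644, 0.41) and Ndn (Ddx50, 0.45, Foxn2, 0.43, and Dnajb12, 0.42) had no partner at 0.50, and neither had Dlk1. Cdh5 is a gene of the E11.5 gate and had a read in 45 of 48 AGM cells, in 7 of 16 from yolk sac, 3 of 16 liver cells at E12.5 and 1 of 16 E14.5 cells.

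Of 36 other imprinted genes, 30 had enough reads. In yolk sac 0 were at least 2-fold higher than in AGM and 10 (33.3%) lower, beside 8.61% and 21% of all genes. At E12.5 4 (13.3%) were higher than in AGM and 11 (36.7%) lower, beside 15.6% and 26%. At E14.5 6 (20%) were higher than at E12.5 and 8 (26.7%) lower, beside 18.7% and 18.2%. Their median log2 ratios were -0.65, -0.82 and 0, beside -0.20, -0.20 and 0 for all genes. The call held whichever single cell was left out for 6 of 10, 10 of 15 and 7 of 14 genes. Nnat (neuronatin) had 64.5 CPM in AGM (19 of 48 cells), 6.05 in yolk sac (4 of 16; 3.58 without cell 3), 0 in the liver at E12.5 and 0.0486 there at E14.5 (1 read). Asb4, a ubiquitin ligase subunit of vascular progenitors, had 22.3 CPM in AGM (14 of 48 cells), 0.897 in yolk sac (0.196 without cell 1) and 0 at E12.5. Ppp1r9a had 30.1 CPM in AGM and 5.60 in yolk sac (log2 ratio -2.24), and Inpp5f 10.003 and 2.24 (-1.76). Mcts2 and Dhcr7 were low at E12.5 (0.367 and 1.78 CPM) beside 25.9 and 35.6 CPM in AGM and 14.9 and 18.7 CPM at E14.5. The E12.5 reads of Dhcr7 were all in cell 1, and without E14.5 cell 7 its E14.5 level was 11.1 CPM. Trappc9 had 11.8 CPM in the liver at E12.5 and 93.6 CPM there at E14.5 (2.89). Leaving out cell 10 of the first group (then 3.92 CPM) gave 4.26, and leaving out cell 13 of the second (then 61.8 CPM) gave 2.30.

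The IGF axis around Igf2 and Grb10 was followed in 16 genes with enough reads of 18 listed. None was at least 2-fold higher than AGM in yolk sac or at E12.5, beside 8.61% and 15.6% of all genes, and 5 (31.2%) and 7 (43.8%) were lower, beside 21% and 26%. At E14.5 2 of 16 were higher than at E12.5 and 4 (25%) lower, beside 18.7% and 18.2%. Median log2 ratios were -0.38, -0.73 and 0, beside -0.20, -0.20 and 0 for all genes. The call held whichever single cell was left out for 5 of 5, 7 of 7 and 1 of 6 genes. Without the cells low in haematopoietic markers, however, Igfbp3 lost its yolk sac call. Its log2 ratio over AGM went from -1.79 to 0.38, while the other yolk sac calls held. Igfbp4, an IGF-binding protein, had 667.4 CPM in AGM, 478.3 in yolk sac and 184.3 at E12.5 (-1.85 for E12.5 over AGM). Hmga2, a chromatin protein of fetal HSCs, had 194.2 CPM in AGM and 90.0 in yolk sac (-1.10), and Lin28b, an RNA-binding protein of the fetal programme, 24.2 and 48.4 CPM (0.97; past 2-fold, at up to 1.11, without any 1 of 16 cells). Igf1r, the receptor that Igf2 signals through, had 27.1 CPM in AGM, 15.2 in yolk sac, 23.1 in the liver at E12.5 and 8.26 there at E14.5 (-1.38 for E14.5 over E12.5, but -0.89 without cell 5 of E12.5 and -2.51 without cell 4 of E14.5). Insr, the insulin receptor, had 14.1 and 33.4 CPM in the liver groups (1.18), and the call was lost without E14.5 cell 10 (0.58), cell 12 (0.85) or cell 9 (0.96). Igf2bp1, which binds Igf2 mRNA, had 41.4 CPM in AGM, 17.1 in the liver at E12.5 and 44.01 there at E14.5. The ligand Igf1 had 23.97, 41.5 and 17.8 CPM in the same groups, and 8.19 CPM at E14.5 without cell 9. Igf2r, the imprinted receptor that clears Igf2, was singled out after its values were seen: it had 11.1 CPM in AGM, 8.88 in yolk sac, 15.2 in the liver at E12.5 (3 of 16 cells; 5.30 without cell 3) and 0 reads at E14.5.

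Notch receptors, ligands and targets were listed because Dlk1 is related to Notch ligands. Of 13 genes, 0 were at least 2-fold higher and 6 (46.2%) lower in yolk sac than in AGM, beside 8.61% and 21% of all genes. At E12.5 1 (7.69%) was higher and 9 (69.2%) lower than in AGM, beside 15.6% and 26%. At E14.5 1 (7.69%) was higher and 4 (30.8%) lower than at E12.5, beside 18.7% and 18.2%. The medians were -0.79, -2.10 and 0, beside -0.20, -0.20 and 0 for all genes, and the call held whichever single cell was left out for 4 of 6, 7 of 10 and 3 of 5 genes. The ligand Dll4 had 50.1 CPM in AGM, 4.44 in yolk sac (2.06 without cell 1) and 2.73 at E12.5, all in cell 1. The target Hes1 had 164.1 CPM in AGM and 10.97 at E12.5 (-3.79, and -4.42 without E12.5 cell 2), with 0 reads at E14.5. Nrarp, a feedback target, had 39.7 CPM in AGM and 5.92 in yolk sac (-2.56). Hey1 had 35.003 CPM in AGM, 6.68 in yolk sac and 0 at E12.5, and its yolk sac ratio went from -2.23 to -1.56 without AGM cells 3 and 36 and to -3.09 without yolk sac cell 1. Notch1 had 25.1 CPM in the liver at E12.5 and 1.89 there at E14.5 (-3.17). Without E12.5 cell 3 the former was 9.20 CPM and the ratio -1.82, and without E14.5 cell 13 the latter was 0.414 CPM and the ratio -4.21. Notch2 had 3.998 CPM in AGM, 1.03 in yolk sac and 0.210 at E12.5, and its yolk sac ratio of -1.30 was -0.95 without AGM cell 24 and -0.999 without AGM cell 17. Endothelial markers moved in the same direction: their summed pooled level was 754.0 CPM in AGM, 332.0 in yolk sac, 301.4 in the liver at E12.5 and 237.9 there at E14.5, with Kdr at 0 in the liver at E12.5 and Cldn5 and Sox17 at 0 there at E14.5. Per cell that sum ran from 68.6 to 6222 CPM in AGM, from 0.679 to 741.9 in yolk sac, from 0 to 794.6 in the liver at E12.5 and from 0 to 772.4 there at E14.5. AGM cells 3 and 36 were the highest, at 6222 and 5101 CPM, and raised the pooled AGM level, which was not taken without them. The cell medians were 545.2 CPM in AGM, 276.8 in yolk sac, 249.7 in the liver at E12.5 and 149.1 there at E14.5. The part of the endothelial sum in the levels of Igf2, H19, Cdkn1c and the Notch genes was not tested.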

How the data were processed

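Per the submitters' processing notes, reads were handled with FastQC, Trimmomatic 0.36, STAR and HTSeq on mm10; the annotation and strand setting are not given in the sources used here. The deposited values are raw counts of reads by gene, with 96 columns, 1 a cell, as the authors gave them; all columns were mapped by name and 0 were left over. No molecular identifiers are named, and libraries had 12 PCR cycles per the labels. The table had 19949 rows; 113 repeated symbols were summed to 19836 genes.

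Reads were pooled per group and scaled to CPM with exact Poisson 95% intervals; shares have Clopper-Pearson 95% intervals. A floor of 3 reads or 3 cells was used at 0. Log2 ratios were taken after 1 CPM was added, over all 15239 genes with 30 reads, and at least 2-fold was the call. Correlations are Spearman's, for genes read in at least 20% of cells. Each group is 1 sample, so no test was made. The members, the gene lists and the alternatives were chosen with earlier results of these data known. Named genes are all members, up to 4 per list and comparison with the largest ratio and detection in 25% or more of the higher group, and the 3 most similar genes per member. Leaving out the cells under 100 CPM of haematopoietic markers, and E12.5 cell 15, and leaving out single cells for the list genes, was chosen after seeing the data. Coordinates are from the GENCODE vM21 annotation of GRCm38, the build called mm10. The motifs were chosen after the promoter sequences were seen. 0 columns were identical between cells, and the highest Pearson correlation of log2 CPM between 2 cells was 0.867. Doublets were not called, as wells were sorted to 1 cell. The calculations were tested on simulated counts, with Python 3.11.15, numpy 2.4.6, pandas 2.3.3, scipy 1.17.1 and matplotlib. Alternatives were another scaling, 10 CPM added, thinned reads, the mean of each cell's CPM, no minimum of reads, cells with at least 2000 genes, and leaving out single cells, the deepest cells, globin-rich cells or yolk sac cells with no gate read.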

Additional observations from a re-analysis of the deposited data

How the results depend on the processing

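No paired analysis was possible because cell numbers name no shared animal, litter or batch and the results come from no test. Of the 21 ratios of a member at or past 2-fold, 12 kept that call and direction under each of 12 alternative values, and 6 of the 9 ratios under 2-fold stayed under it. The ratio of Meg3 changed sign without E12.5 cell 15, the one with the most Meg3 reads, to -0.61 for E12.5 over AGM and to 0.075 for E14.5 over E12.5 (single cells left out gave -0.61 to 1.70 and -3.25 to 0.075); no other called ratio changed sign. Members at least 2-fold lower in yolk sac than in AGM numbered 7, 4 with 10 CPM added and 4 with only the yolk sac cells that had a Cdh5 or Procr read (Igf2, Peg3 and Plagl1 lost the call). Leaving out globin-rich cells ended the calls of H19 for E14.5 over E12.5 (-0.91) and Plagl1 for E12.5 over AGM (-0.88), and without each group's most deeply sequenced cell the same held for Plagl1 for E12.5 over AGM (-0.93) and Peg3 for yolk sac over AGM (-0.94). H19 for yolk sac over AGM passed 2-fold with cell CPM averaged (-1.05) or reads thinned (-1.01). Members higher at E12.5 than in AGM numbered 2, and 1 with 10 CPM added or without E12.5 cell 15. Members lower at E14.5 than at E12.5 numbered 5, and 2 without E12.5 cell 15. Leaving out single cells gave 6 to 8 lower and 1 higher in yolk sac, 1 to 2 higher and 5 to 6 lower at E12.5, and 0 to 1 higher and 2 to 6 lower at E14.5. Leave-one-out gave 0.62 to 0.66 for Igf2 with H19, 0.81 to 0.86 for Meg3 with Mest and -0.26 to -0.22 for Igf2 with Dlk1; the other alternatives gave 0.59 to 0.68, 0.73 to 0.88 and -0.33 to -0.17. With no minimum of reads, genes at least 2-fold in either direction made up 22.9%, 32.2% and 28.6% in place of 29.6%, 41.7% and 36.9%. Median-of-ratios scaling shifted the median of all genes by at most 0.074. With 10 CPM added the lists shrank most: other imprinted genes lower in yolk sac went from 10 to 5 and lower at E14.5 from 8 to 2, with those higher at E12.5 going from 4 to 1; IGF axis genes lower went from 5 to 2, 7 to 2 and 4 to 1, with those higher at E14.5 going from 2 to 0; Notch genes lower went from 9 to 4 at E12.5 and from 4 to 2 at E14.5, with those higher going from 1 to 0 in both. Imprint maintenance genes lower went from 3 to 1 in yolk sac and at E14.5, and from 1 to 2 at E12.5 when cell CPM were averaged. Cell cycle inhibitors lower went from 2 to 0, 2 to 1 and 2 to 1, and higher from 1 to 0 at E12.5 and from 1 to 2 at E14.5 under that averaging. The share of all genes was not recounted with 10 CPM added or cell CPM averaged, so these shifts cannot be set beside those of all genes. Their cause was not tested beyond the setting named. Levels of Meg3, Peg3 and Mest in the liver groups rest on few cells, as at most 3 of 16 had a read. With reads thinned, Peg3 was read in 25 of 43 AGM cells and in 1 of 14 cells of each liver group. Mest was read in 15 of 43 AGM cells and in 0 of 14 of each liver group. Meg3 was read in 11 of 43 AGM cells, 3 of 14 at E12.5 and 1 of 14 at E14.5. The part of depth in these shares was not tested further.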

Other observations

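Genes that set, keep or remove DNA methylation and imprints were counted in the same way: of 14 with enough reads, 1 (7.14%) was at least 2-fold higher and 3 (21.4%) lower in yolk sac than in AGM, beside 8.61% and 21% of all genes. At E12.5 against AGM the counts were 0 and 1 (7.14%), beside 15.6% and 26%, and at E14.5 against E12.5 they were 0 and 3 (21.4%), beside 18.7% and 18.2%. The shares lower in yolk sac and at E14.5 were thus near those of all genes, and 1 of 4, 1 of 1 and 1 of 3 calls held whichever single cell was left out. Dnmt3b, a de novo DNA methyltransferase, had 303.5 CPM in yolk sac (16 of 16 cells) and 140.2 CPM in AGM (42 of 48), a log2 ratio of 1.11 (0.95 without yolk sac cell 5), and 183.5 and 109.0 CPM in liver at E12.5 and E14.5. Dnmt1, the maintenance methyltransferase, had 142.2 CPM in AGM and 98.4 at E12.5, and Uhrf1, its hemimethylated DNA partner, 108.6 and 57.8 CPM; the ratios were -0.53 and -0.90. Both passed 2-fold without 1 cell: without E12.5 cell 14 Dnmt1 was at 49.8 CPM (-1.49) and Uhrf1 at 53.7 CPM (-1.004), and leaving out cell 11 put Uhrf1 at 29.2 CPM (-1.86). Zfp445, a zinc finger protein that guards imprints, had 33.4 CPM in AGM (32 of 48 cells) and 5.04 CPM at E12.5 (6 of 16), a ratio of -2.51 (-3.30 without E12.5 cell 1). Zfp57, which has the same role, had 4.15 CPM in AGM, 1.30 in yolk sac, 3.10 in the liver at E12.5 (0.330 without cell 16) and 0 reads there at E14.5. Tet3 and Tet2, which oxidise methylcytosine, had 31.7 and 9.39 CPM in AGM and 10.4 and 3.50 CPM in yolk sac (-1.52 and -1.21). The Tet2 ratio was -0.86 without AGM cell 3 and -0.78 without the 3 cells low in haematopoietic markers. Tet2 had 18.2 CPM in the liver at E12.5 (6.82 without cell 2) and 7.58 there at E14.5, from 1 of 16 cells. For E12.5 over AGM its ratio was 0.89, and 1.33 without the 3 cells low in haematopoietic markers. Single cells left out gave -0.41 to 1.23. Smchd1, a chromatin protein of imprinted clusters, had 33.6 CPM in the liver at E12.5 and 7.68 there at E14.5 (-1.995, and -1.36 without E12.5 cell 5), with a read in 6 of 16 cells of each.

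Other cell cycle inhibitors were set beside Cdkn1c. Of 6 with enough reads, 0 were at least 2-fold higher and 2 (33.3%) lower in yolk sac than in AGM, beside 8.61% and 21% of all genes. At E12.5 against AGM 1 (16.7%) was higher and 2 (33.3%) lower, beside 15.6% and 26%. The counts were the same at E14.5 against E12.5, beside 18.7% and 18.2%. The call held whichever single cell was left out for 1 of 2, 3 of 3 and 2 of 3 genes. Cdkn1a had 45.6 CPM in AGM, 76.8 in yolk sac (0.74) and 12.1 at E12.5 (-1.83), where cell 14 held 98.7% of the reads and the level without it was 0.171 CPM. Cdkn2d had 91.2 CPM in AGM, 60.03 in yolk sac, 110.4 in the liver at E12.5 and 218.3 there at E14.5 (0.98 for E14.5 over E12.5; past 2-fold, at up to 1.15, without any 1 of 14 cells). Rbl1 stayed within 12.8 to 18.8 CPM in the 4 groups, but leaving out cell 11 put it at 7.44 CPM in the E12.5 group, and leaving out cell 1 put it at 8.88 CPM in the E14.5 group. Rb1 had 7.05 CPM in AGM, 1.88 in yolk sac, 0 reads at E12.5, and at E14.5 10.6 CPM (3 of 16 cells; 6.17 without cell 12).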
